A study of Mus musculus with 2 samples.

Results

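The genes described here are 51 genes of the DNA replication machinery, chosen by symbol from a list of licensing, helicase, polymerase, clamp and nucleotide synthesis genes. All 51 were found among the 27998 genes that both libraries list, and all are annotated as protein coding. The study measured single-cell transcriptomes of mouse peripheral retina at postnatal day 8, with 1 library per genotype. The group DKO carries alphaCre, Rbf/f and p107-/- and is labelled as prone to tumors. The group DKO_Skp2het carries alphaCre, Rbf/f and p107-/- as well, plus skp2+/-, and is labelled as resistant to tumors. Both groups therefore share the loss of p107 and the Cre-driven deletion of Rb, and neither is a wild type. alphaCre is a Cre driver active in the peripheral retina, and the dissection took that area, so cells of other origin in it, such as microglia, keep their Rb. The number of animals per library is not given in the sources used here.

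DNA replication is prepared in G1, when the origin recognition complex, Cdc6 and Cdt1 load the ring of Mcm2 to Mcm7 onto DNA, and is started in S phase, when Cdc7-Dbf4 kinase, Cdc45 and the GINS complex turn that ring into a working helicase. Many of these genes are textbook targets of E2F transcription factors, which Rb and p107 bind and restrain, and Rb-deficient retinal progenitors are known for dividing past their normal time of cell cycle exit. Skp2 is the substrate-binding subunit of a ubiquitin ligase, with the Cdk inhibitor p27 as its best known substrate and Cdt1 among its other known substrates.

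Because E2F factors are the best known partners of Rb and p107, the promoters were searched for 4 forms of the E2F motif (TTTCCCGC, TTTCGCGC, TTTGCCGC and TTTGGCGC, on both strands) in the 250 bases before the start. RefSeq promoters of GRCm38.p6 were matched by symbol for 43 of the 51 genes, and 9 of the 43 (20.9%) held a match. Among the 17999 genes of the files with a RefSeq promoter the share was 2.58%, and 1.86% of all 32851 promoters of that length held one. Licensing genes held most of them, 5 of 9 with a promoter: Mcm5, Mcm6, Mcm7, Cdc6 and Orc1. The other 4 were Dtl, Pola1, Rfc3 and Cdca7. The matches of the licensing genes are shown because this role had the highest share, and those of Dtl and Cdca7 because both genes stood out between the libraries in the non-dividing cells described further on. Each runs 5′ to 3′ on the strand of the gene, with the E2F match in capitals. Overlapping matches form 1 longer run of capitals.
Mcm5, chr8:75109336-75109387, plus strand: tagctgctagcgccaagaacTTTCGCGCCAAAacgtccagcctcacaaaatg
Mcm6, chr1:128359725-128359835, minus strand: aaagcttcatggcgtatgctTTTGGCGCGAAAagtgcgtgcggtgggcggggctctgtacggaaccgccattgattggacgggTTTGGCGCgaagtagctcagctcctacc
Mcm7, chr5:138172021-138172068, minus strand: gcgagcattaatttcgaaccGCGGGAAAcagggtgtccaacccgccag
Cdc6, chr11:98907993-98908040, plus strand: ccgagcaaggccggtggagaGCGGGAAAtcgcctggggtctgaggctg
Orc1, chr4:108579407-108579453, plus strand: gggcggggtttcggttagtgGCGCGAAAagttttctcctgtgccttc
Dtl, chr1:191575545-191575572, minus strand: atcagaaagcgtgacgtcagTTTGGCGC
Cdca7, chr2:72476128-72476175, plus strand: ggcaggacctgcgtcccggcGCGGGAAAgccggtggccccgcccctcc
Mcm6 held 3 matches, the nearest 39 bases before its start, and the match of Dtl ended at the start itself. Among other G1/S genes outside the set, 10 of 30 promoters held an E2F match. The CHR element (TTTGAA or TTCGAA, both strands), known from promoters of mitotic genes, was found in 18.6% of the replication genes and in 18.0% of the listed genes, against 43.2% of the genes of a G2/M list. CCAAT, on both strands, was found in 55.8% of the replication genes and in 38.8% of the listed genes.

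The libraries held 24413761 UMIs (unique molecular identifiers, 1 per captured transcript) over 3621 barcodes in DKO and 25766024 over 5196 in DKO_Skp2het. After filters, 3515 and 4978 cells remained, with a median of 4861 and 3799 UMIs, so the cells of DKO_Skp2het were shallower. No cell of DKO had fewer than 3420 UMIs, while 1898 cells of DKO_Skp2het (38.1%) did. Most results that this gap touches are given a second time over cells with 3420 UMIs or more, called the common depth floor. Values within single clusters were not recomputed at that floor. The libraries shared 30 barcodes. Skp2 stood at 80.5 CPM (UMIs per 1000000 UMIs of the cells summed) in DKO and 56.8 CPM in DKO_Skp2het, a ratio of 0.706 with a 95% interval of 0.658 to 0.758. With 1 library per genotype no test between genotypes was possible, and no p-value is given. Intervals are exact 95% intervals of counting error only and say nothing of the spread between animals.

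The 51 genes took 0.534% of all UMIs in DKO and 0.546% in DKO_Skp2het. Dut, which removes dUTP from the nucleotide pool, was the most abundant at 561 CPM in DKO and 604 CPM in DKO_Skp2het. Tipin, the partner of Timeless in protecting the fork, followed with 534 and 467 CPM. Slbp, which binds the stem-loop of histone mRNA, stood at 287 and 320 CPM, and Nasp, a histone chaperone, at 262 and 264 CPM. The rarest were Orc1, the largest subunit of the origin recognition complex, at 4.34 and 4.83 CPM, and Pole2, a polymerase epsilon subunit, at 8.59 and 10.3 CPM. The kit counts each transcript once at its 3′ end, so these CPM are not divided by transcript length, and their order also reflects how well each 3′ end is captured.

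Within the licensing group, Gmnn, the inhibitor of Cdt1, was highest at 204 CPM in DKO and 189 CPM in DKO_Skp2het. Orc6, the smallest origin recognition subunit, stood at 138 and 97.6 CPM, the widest ratio between the libraries of any member. The 6 subunits of the Mcm ring, which act in equal number, ranged from 43.4 CPM for Mcm3 to 123 CPM for Mcm7 in DKO, and from 44.9 to 121 CPM for the same genes in DKO_Skp2het. Between these were Mcm4 (52.7 and 57.2 CPM), Mcm2 (55.4 and 62.4 CPM), Mcm5 (57.3 and 50.0 CPM) and Mcm6 (90.1 and 102 CPM). Cdt1 had 62.5 and 55.6 CPM, and Cdc6 30.4 and 31.0 CPM. Of the genes that activate the helicase, Dbf4, the regulatory subunit of Cdc7, was highest at 105 and 104 CPM, above its kinase Cdc7 at 40.7 CPM in each library. Gins2 (50.8 and 56.7 CPM), Gins1 (31.0 and 32.1 CPM), Cdc45 (29.8 and 28.5 CPM) and Mcm10 (16.7 and 14.2 CPM) were lower.

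Polymerase subunits were the least abundant group for its size. Pold2 was highest with 75.7 CPM in DKO and 74.5 CPM in DKO_Skp2het, followed by the primase subunit Prim1 with 70.2 and 80.7 CPM. The catalytic subunits stood lower, at 31.8 and 33.4 CPM for Pola1, 27.2 and 27.7 CPM for Pold1 and 18.8 and 16.8 CPM for Pole. Pold3 had 58.1 and 56.5 CPM, Prim2 40.8 and 39.6 CPM, and Pola2 34.1 and 31.5 CPM. Of the clamp and lagging strand genes, Lig1, which seals Okazaki fragments, had 185 and 166 CPM, and Pcna, the sliding clamp, 173 and 174 CPM. The 5 clamp loader subunits ranged from Rfc5 (67.6 and 76.3 CPM) to Rfc3 (117 and 108 CPM), with Rfc1 at 81.5 and 94.1, Rfc4 at 86.7 and 86.3 and Rfc2 at 100 and 115 CPM. Dtl, which targets Cdt1 for destruction on PCNA, had 111 and 124 CPM, and the flap nuclease Fen1 59.4 and 61.4 CPM.

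The 3 subunits of RPA, which coat single-stranded DNA as 1 complex, differed in level, with Rpa3 at 194 CPM in DKO and 240 CPM in DKO_Skp2het, Rpa2 at 141 and 159 CPM, and Rpa1 at 51.0 and 56.0 CPM. Timeless had 32.7 and 29.2 CPM, far under its partner Tipin. In nucleotide supply, Rrm2 (195 and 177 CPM) exceeded Rrm1 (86.7 and 91.6 CPM), its partner in ribonucleotide reductase. Thymidylate synthase Tyms had 183 and 217 CPM, thymidine kinase Tk1 78.1 and 86.9 CPM, and the uracil glycosylase Ung 64.2 and 72.8 CPM. Among chromatin genes, Cdca7 had 76.4 and 92.1 CPM, and the chromatin assembly factor subunits Chaf1b and Chaf1a had 63.3 and 69.1, and 44.8 and 48.1 CPM.

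**Figure D1:**
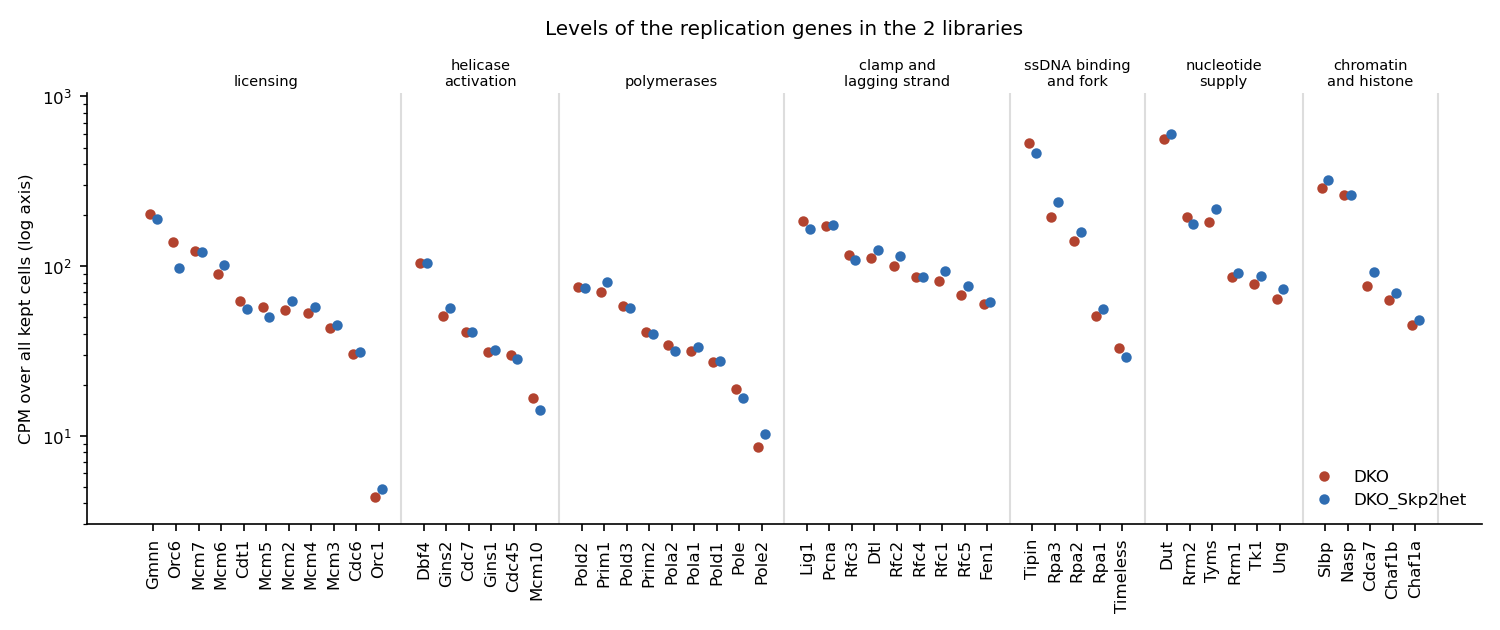
Level of each of the 51 replication genes over all kept cells, in CPM on a log axis, grouped by role, with 1 point per library. The pairs of points lie close together for most genes, from Dut at 561 and 604 CPM down to Orc1 at 4.34 and 4.83 CPM, and Orc6 shows the widest gap on this log axis, 138 against 97.6 CPM.

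Cells were called dividing when they held 3 or more UMIs of 26 mitotic and proliferation genes, none of them one of the 51, after every cell had been thinned to 1500 UMIs. This gave 1921 dividing cells in DKO (54.7%, 53.0 to 56.3%) and 2127 in DKO_Skp2het (42.7%, 41.3 to 44.1%), with 48.9% (47.1 to 50.7%) of DKO_Skp2het at the common depth floor, and 476 and 792 cells lay within 1 UMI of that limit, at 2 or 3 UMIs. The summed level of the 51 genes was 6095 CPM in dividing and 4283 CPM in non-dividing cells of DKO, a ratio of 1.42 (1.41 to 1.44). In DKO_Skp2het it was 6260 and 4761 CPM, a ratio of 1.31 (1.30 to 1.33). The gap was narrow beside that of 14 replication-dependent histone genes, which were 8.51-fold higher in dividing cells of DKO (8.10 to 8.94). Other G1/S genes lay between, at 1.69-fold (1.67 to 1.72), with 17 of 37 past 2-fold and a median log2 difference of 0.87.

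Most single members differed by less than 2-fold between dividing and non-dividing cells. The share at least 2-fold higher in dividing cells still exceeded that among all genes compared. Of 50 members compared (200 UMIs or more over both populations), 6 were at least 2-fold higher in dividing cells of DKO and 0 lower, where 4.41% of all genes compared were higher and 6.15% lower. In DKO_Skp2het 7 were higher and 1 lower, beside 4.07% and 5.63% of all genes. The median log2 difference was 0.43 over the members and -0.02 over all genes in DKO, and 0.25 and -0.03 in DKO_Skp2het. Calls and log2 differences use log2 of CPM plus 5, which understates differences of low genes.

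Dbf4 showed the highest ratio, 163 CPM in dividing and 24.8 CPM in non-dividing cells of DKO, which is 6.60-fold, and 191 and 27.5 CPM in DKO_Skp2het, which is 6.95-fold. Rrm2, the cell cycle regulated subunit of ribonucleotide reductase, was 5.33-fold higher in DKO (296 and 55.5 CPM) and 5.03-fold higher in DKO_Skp2het (309 and 61.6 CPM). Rrm1 (2.61 and 2.32-fold), Cdc45 (2.46 and 2.34-fold), Tk1 (2.44-fold in each) and Gmnn (2.28 and 2.04-fold) completed the 6 members past 2-fold in DKO, and all 6 were past it in DKO_Skp2het too. Mcm10, which helps assemble the helicase, passed it in DKO_Skp2het with a ratio of 2.64 and had a ratio of 2.50 in DKO, where the added 5 CPM kept it under the limit. At the other end, Ung was lower in dividing cells, 46.1 against 89.4 CPM in DKO (ratio 0.515) and 43.5 against 98.7 CPM in DKO_Skp2het (ratio 0.440). Gins2 (0.876 and 0.743), Chaf1b (0.890 and 0.948), Mcm2 (0.899 and 0.687) and Rfc2 (0.923 and 0.805) also stood below 1 in both libraries.

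**Figure D2:**
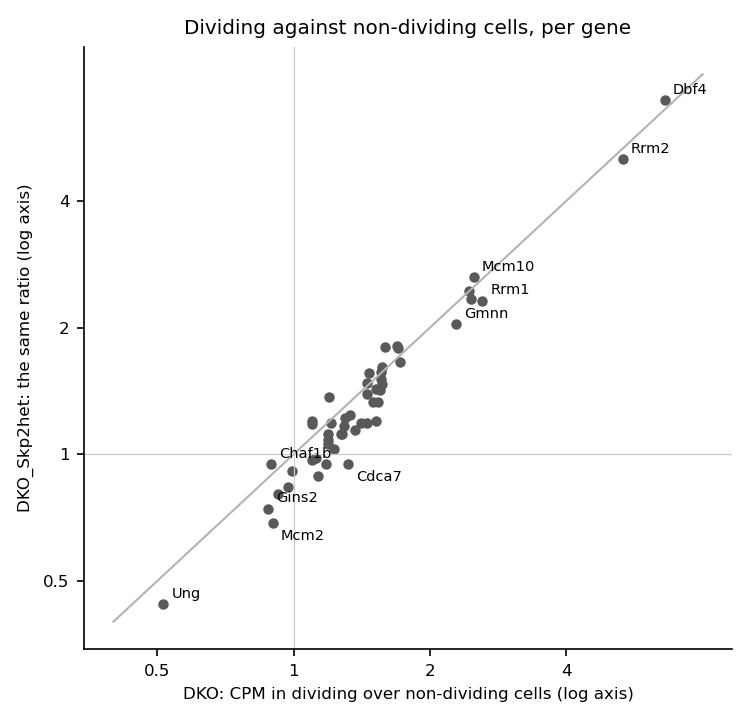
Ratio of CPM in dividing over non-dividing cells for each of the 51 genes, DKO on the x axis and DKO_Skp2het on the y axis, both log axes, with the line of equal ratios. Dbf4 and Rrm2 lie far above the rest at over 5-fold in each library, most genes lie between 1 and 2, and Ung lies lowest at 0.515 and 0.440.

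Cells without mitotic transcripts can still be in G1 or early S phase, so cells were also sorted by a grid of 2 lists that hold none of the 51 genes: 39 other G1/S genes and 82 mitotic genes, each at 3 or more UMIs of 1500. Of the cells of DKO, 62.7% held both lists, 16.2% only the mitotic one, 7.60% only the G1/S one and 13.5% neither. The shares in DKO_Skp2het were 58.6%, 14.8%, 9.48% and 17.1%. At the common depth floor they were 59.3%, 16.5%, 7.31% and 16.9%, so the shares with only the mitotic or only the G1/S list changed sides relative to DKO, with intervals that overlap those of DKO. The summed level of the replication genes was 1739 CPM with neither list, 4946 CPM with G1/S only, 6823 CPM with both and 2574 CPM with mitotic only in DKO. In DKO_Skp2het the same states had 1801, 5918, 7289 and 2593 CPM. Cells with G1/S genes thus held more replication transcripts than cells with neither list, whether or not mitotic genes were present. The state with both lists was the highest for 41 members in DKO and 39 in DKO_Skp2het, G1/S only for 9 and 11, and mitotic only for 1 member in each, Dbf4. The highest state was the same in both libraries for 45 of 51 members.

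Among licensing genes, Mcm2 and Mcm6 were highest in cells with G1/S genes only, and Mcm7, Cdt1 and Gmnn in cells with both lists. Mcm2 had 18.0, 73.5, 68.2 and 27.8 CPM in DKO over neither, G1/S only, both and mitotic only, and 24.5, 103, 77.0 and 30.6 CPM in DKO_Skp2het. Mcm6 had 37.1, 117, 110 and 43.3 CPM in DKO, and 34.2, 158, 130 and 44.4 CPM in DKO_Skp2het. Mcm3 had 15.7, 42.5, 56.2 and 15.7 CPM in DKO, and 14.7, 68.1, 57.0 and 22.4 CPM in DKO_Skp2het. For Mcm3 the highest state therefore moved from both lists to G1/S only, as it also did for Mcm5, whose values follow. Whether these moves exceed counting error was not tested.
Mcm4 had 15.7, 50.9, 68.5 and 21.5 CPM in DKO, and 21.6, 61.8, 75.9 and 25.9 CPM in DKO_Skp2het. Mcm5 had 16.7, 56.1, 72.2 and 32.0 CPM in DKO, and 9.97, 68.1, 66.0 and 26.7 CPM in DKO_Skp2het. Mcm7 had 42.6, 121, 154 and 69.5 CPM in DKO, and 53.2, 145, 156 and 57.3 CPM in DKO_Skp2het. Every ring subunit was thus lower in mitotic-only cells than in either state with G1/S genes, in both libraries.
Cdc6, the loader that brings Mcm rings to origins, had 2.62, 19.3, 43.6 and 5.51 CPM in DKO, and 2.37, 31.2, 46.5 and 5.54 CPM in DKO_Skp2het. Cdt1 had 19.0, 50.9, 83.8 and 18.9 CPM in DKO, and 11.4, 62.3, 79.0 and 15.6 CPM in DKO_Skp2het. Gmnn had 34.1, 111, 276 and 96.0 CPM in DKO, and 24.9, 141, 271 and 92.4 CPM in DKO_Skp2het. All 3 were highest where both lists were present.

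Pcna had 45.3, 205, 226 and 52.7 CPM over the same 4 states in DKO, and 54.6, 225, 238 and 45.9 CPM in DKO_Skp2het. Tyms had 33.1, 140, 248 and 66.1 CPM in DKO, and 40.4, 174, 314 and 78.2 CPM in DKO_Skp2het. Slbp had 86.9, 231, 380 and 106 CPM in DKO, and 86.4, 325, 445 and 120 CPM in DKO_Skp2het. Those 3 genes shared the pattern of the ring subunits, with both G1/S states above the others. Rrm2 was more sharply tied to cells with both lists, at 11.2, 63.2, 283 and 54.3 CPM in DKO, and 13.8, 62.3, 278 and 48.3 CPM in DKO_Skp2het. Dbf4 was the member highest in mitotic-only cells, at 10.8, 22.6, 124 and 143 CPM in DKO, and 12.8, 34.3, 130 and 144 CPM in DKO_Skp2het.

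A finer order was made, after the data had been seen, from cells with 6 or more UMIs of the G1/S and mitotic lists together, which were 2771 cells in DKO and 3683 in DKO_Skp2het. These were split into 5 bins by the G1/S share of those UMIs, from over 80% to under 20%. The summed level of the replication genes was 6422, 7351, 7696, 7144 and 4138 CPM along the bins in DKO, and 7659, 8075, 8030, 7585 and 4026 CPM in DKO_Skp2het. It was thus broad over the first 4 bins and low where mitotic genes dominated. Histone genes reached their highest level later, in the bin of 20 to 40%, at 1771 CPM in DKO and 1361 CPM in DKO_Skp2het, from 125.9 and 138.6 CPM in the first bin.

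Single members kept their own place in this order. Ung was early, with 151, 157, 112, 55.2 and 23.0 CPM in DKO, and 173, 158, 120, 58.1 and 18.4 CPM in DKO_Skp2het. Chaf1b (131, 123, 113, 73.3 and 27.1 CPM in DKO), Gins2 (94.9, 89.5, 86.3, 54.7 and 29.9 CPM) and Mcm2 (98.5, 100, 88.5, 65.1 and 31.6 CPM) had the same early shape. Rrm2 was late, at 89.4, 94.0, 203, 412 and 182 CPM in DKO, and 84.2, 123, 188, 475 and 196 CPM in DKO_Skp2het. Dbf4 was latest, at 34.7, 44.3, 59.2, 115 and 221 CPM in DKO, and 44.6, 40.2, 51.1, 137 and 262 CPM in DKO_Skp2het. In both libraries 39 of 51 members were higher in the first 2 bins than in the last 2, and 9 were higher in the last 2. Each member's early over late log2 ratio in 1 library correlated with that in the other at r = 0.98 across the 51 genes, which are not independent of one another and share library, depth and the ordering lists. The highest bin was the same for 31 members and at most 1 bin apart for 44.

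**Figure D3:**
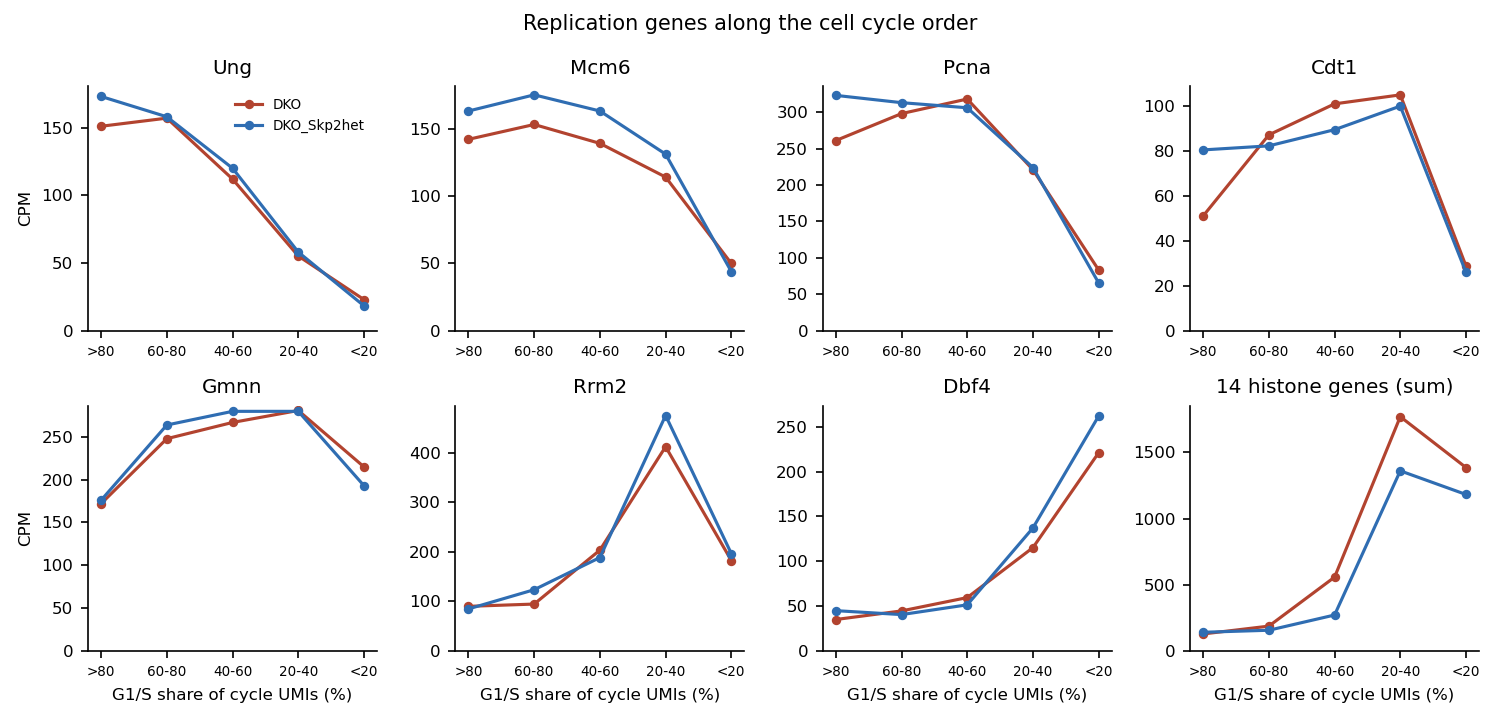
CPM of 7 replication genes and of the sum of 14 histone genes in 5 bins of cells, ordered along the x axis by the G1/S share of G1/S and mitotic UMIs in percent, with 1 line per library and every y axis starting at 0. Ung and Mcm6 are highest early, Rrm2 in the bin of 20 to 40% and Dbf4 in the last bin in both libraries, and the histone line of DKO_Skp2het lies below that of DKO from the bin of 60 to 80% on.

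Clusters were made from 2000 variable genes that exclude the 51 members, the cell cycle lists and the histone genes, and 16 clusters held 30 cells or more in each library. They were called after a cell type only where marker genes gave it. The level of the replication genes varied widely between clusters. It was highest in cluster 11, an unnamed cluster led by Txnip, Myc and Gadd45b, at 9604 CPM in DKO and 9973 CPM in DKO_Skp2het, and in cluster 6, led by Miat and Dlk1, at 8799 and 9100 CPM. Clusters 0, 1 and 3, also unnamed, followed with 7639 and 7768, 7224 and 8111, and 6891 and 6859 CPM. By its markers cluster 0 came nearest to Müller glia, with 11 of 13 over 2-fold. It was not named, since its 10 leading genes held 1 marker of that type and 1 of another. Neurogenic progenitor-like cells had 4996 and 4747 CPM. The 2 immature neuron-like clusters had 5667 and 5076 CPM (cluster 7, led by Ptf1a) and 4087 and 3115 CPM (cluster 4, with Nhlh2 and Ebf3).

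Differentiated types were lower. Rod-like cells had 2749 CPM in DKO and 2345 CPM in DKO_Skp2het, bipolar-like cells 2153 and 1605 CPM, amacrine-like cells 2053 and 2164 CPM, and cone-like cells 1854 and 1081 CPM. Müller glia-like cells had 946.9 and 1315 CPM. Microglia-like cells, outside the retinal lineage, were lowest with 703.1 and 893.0 CPM from 198 and 280 UMIs. Each retinal neuron class stood above this microglial level. Free RNA gives some UMIs of any gene to cells that do not express it, and its share in these values was not tested.

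Within clusters 0, 1, 3, 6 and 7, the clusters with at least 30 cells of both kinds in both libraries, the gap between dividing and non-dividing cells was narrower than over all cells, or turned round. In cluster 0, the 325 non-dividing and 139 dividing cells of DKO had 7650 and 7617 CPM (ratio 0.996, 0.964 to 1.03), and the 528 and 127 cells of DKO_Skp2het had 7785 and 7704 CPM (0.990, 0.957 to 1.02). In cluster 6 the ratio was 0.968 (0.921 to 1.02) in DKO and 1.02 (0.984 to 1.05) in DKO_Skp2het. In cluster 1 it was below 1, at 0.841 (0.815 to 0.868) and 0.909 (0.884 to 0.935). In cluster 3 it was 1.09 (1.03 to 1.16) in DKO and 0.939 (0.903 to 0.977) in DKO_Skp2het, and in cluster 7 it was 1.08 (1.04 to 1.11) and 1.20 (1.14 to 1.26). Histone genes still separated the same cells, at 691.3 CPM in dividing and 152.7 CPM in non-dividing cells of cluster 0 in DKO.

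Members differed in which cluster they favoured. Cluster 6 was the highest for 20 members in DKO and 14 in DKO_Skp2het, and cluster 11 for 20 and 17. Rrm2 reached 1033 and 1180 CPM in cluster 11 and stood at 186 and 208 CPM in cluster 6. Slbp (835 and 884 CPM), Mcm7 (384 and 518 CPM), Orc6 (345 and 451 CPM) and Cdt1 (278 and 293 CPM) were also highest in cluster 11. Dut (1040 and 1099 CPM), Tipin (856 and 836 CPM), Tyms (398 and 430 CPM) and Rpa2 (314 and 332 CPM) were highest in cluster 6. Ung was highest in cluster 3, an unnamed cluster with Hes5 and Sox8 among its leading genes, at 185 and 168 CPM. Dbf4 was highest in clusters led by mitotic genes, cluster 12 in DKO (271 CPM) and cluster 2 in DKO_Skp2het (306 CPM).

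**Figure D4:**
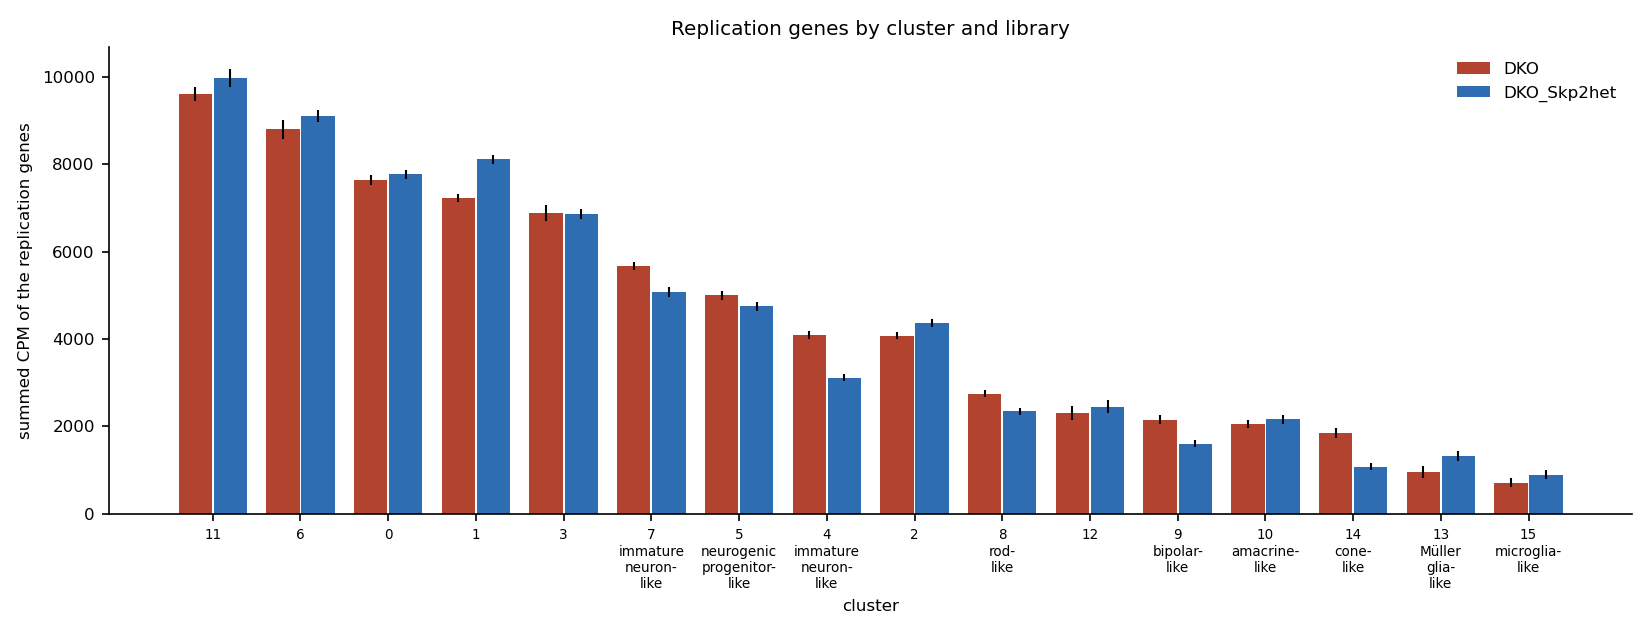
Summed CPM of the 51 replication genes in each cluster with 30 cells or more per library, 1 bar per library, with 95% Poisson intervals of counting error, and clusters ordered by the level in DKO. Bars fall from 9604 and 9973 CPM in cluster 11 to 703.1 and 893.0 CPM in microglia-like cells, and bars of DKO_Skp2het are lower in cone-like, bipolar-like, rod-like and immature neuron-like cells.

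Between the libraries, the replication genes as a whole were near equal. Their sum was 5337 CPM in DKO and 5462 CPM in DKO_Skp2het over all cells, a ratio of 1.02 (1.02 to 1.03). It was 1.03 (1.02 to 1.04) among dividing cells and, among non-dividing cells, 1.11 (1.10 to 1.13), from 4283 to 4761 CPM. Over cells at the common depth floor these ratios were 0.990, 1.00 and 1.03, so the higher level in non-dividing cells was reduced when shallow cells were left out. For the 26 genes that called the cells dividing, all cells gave 0.868 (0.861 to 0.875) and those at the floor 0.990 (0.981 to 0.998), while dividing cells gave 1.07 (1.06 to 1.07) and 1.13 (1.12 to 1.14).

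By role, the sums of chromatin and nucleotide genes were higher in DKO_Skp2het, and that of the licensing genes differed in direction between kinds of cell. Over all cells the 11 licensing genes added up to 861.2 CPM in DKO against 815.2 CPM in DKO_Skp2het, a ratio of 0.947 (0.928 to 0.966). Most of that gap was Orc6. Without it the sums were 723.2 and 717.6 CPM, a ratio of 0.992 (0.971 to 1.01), and 0.949 (0.927 to 0.971) at the common depth floor. Of the 11 genes 6 were above and 5 below equal levels, with a median log2 difference of 0.02. Nucleotide supply genes had a ratio of 1.07 (1.05 to 1.09), chromatin and histone genes 1.08 (1.06 to 1.10), clamp and lagging strand genes 1.02 (1.01 to 1.04), polymerases 1.02 (0.986 to 1.05), helicase activation genes 1.01 (0.972 to 1.04), and single-strand binding and fork genes 0.999 (0.980 to 1.02). At the common depth floor nucleotide supply stood at 1.05, chromatin and histone at 1.03 and helicase activation at 1.03. There the clamp genes and the polymerases each stood at 0.983. Single-strand binding and fork genes had 0.952 (0.933 to 0.971) and licensing genes 0.911 (0.892 to 0.931) at that floor. The licensing sum had a ratio of 1.05 (1.02 to 1.09) in non-dividing cells, which was 0.959 (0.926 to 0.994) at the common floor, and of 1.22 (1.14 to 1.32) in cells with G1/S genes only, which was 1.19 at the floor. In dividing cells, licensing stood at 0.941 (0.918 to 0.966), or 0.972 (0.946 to 1.000) without Orc6, helicase activation at 1.08 (1.04 to 1.13) and nucleotide supply at 1.09 (1.07 to 1.11). In cells with G1/S genes only, the sum over all members was 1.20-fold higher in DKO_Skp2het (1.16 to 1.23), and 1.17-fold (1.13 to 1.21) at the common depth floor. The G1/S list that sorts these cells was itself 1.15-fold higher there (1.11 to 1.19), and 1.12-fold (1.07 to 1.17) at the floor. A separate list of 40 other replication genes was 1.15-fold higher (1.11 to 1.20), and also 1.15-fold at the floor. Along the finer order the ratio of the members' sum was 1.19, 1.10, 1.04, 1.06 and 0.973 from the first bin to the last, and 1.17, 1.10, 1.03, 1.07 and 0.974 at the common floor. The first bin held 3.79% of the ordered cells of DKO and 5.57% of those of DKO_Skp2het. Its cells held 4675 CPM of the G1/S list in DKO and 5528 CPM in DKO_Skp2het.

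A member was called different between the libraries when its CPM plus 5 was at least 25% higher, or at least 20% lower. These limits are the same factor. The added 5 CPM left some plain ratios past the limit uncalled, such as 1.27 for Rrm1 in non-dividing cells. Few members were called. Over all cells 0 of 51 were higher and 1 was lower in DKO_Skp2het, where 3.20% of all genes compared were higher and 2.41% lower. The median log2 difference was 0.04 over the members and 0.02 over all genes. In dividing cells 2 of 50 were higher (Rpa3 and Tyms) and 1 lower (Orc6), beside 4.68% and 4.06% of all genes, with medians of 0.05 and 0.03. In non-dividing cells 3 of 48 were higher (Cdca7, Rpa3 and Dtl) and 1 lower (Orc6), beside 4.27% and 4.66%, with medians of 0.13 and 0.01. At the common depth floor the counts were 0 higher and 1 lower over all cells (3.73% and 1.79% of all genes), 1 higher and 2 lower in dividing cells (5.04% and 3.81%), and 2 higher and 1 lower in non-dividing cells (4.19% and 2.82%). These shares are near the background, and Orc6 was the member lower in each of the 6 comparisons.

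Orc6 (chr8:85299632-85308278 of GRCm38, plus strand) had 3212 UMIs, 138 CPM, in DKO and 2324 UMIs, 97.6 CPM, in DKO_Skp2het, a ratio of 0.708 (0.671 to 0.747). The ratio was 0.783 (0.732 to 0.837) in dividing cells, from 163 to 128 CPM, and 0.692 (0.632 to 0.758) in non-dividing cells, from 102 to 71.0 CPM. At the common depth floor it was 0.713, 0.788 and 0.651. It was lower in every cycle state, with 56.7 and 36.6 CPM in cells with neither list, 117 and 89.8 CPM with G1/S genes only, 175 and 131 CPM with both, and 66.4 and 45.7 CPM with mitotic genes only. Of 12 clusters with 50 Orc6 UMIs or more, it was lower in 11, down to 0.505 in cluster 4, with 120 and 60.7 CPM. The exception was cluster 11, where it was higher at 345 and 451 CPM (ratio 1.31). Orc1, the other origin recognition subunit in the set, had only 101 and 115 UMIs (ratio 1.11, 0.845 to 1.47), and its wide interval did not reach the ratio of Orc6.

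Rpa3, the smallest RPA subunit (chr6:8255936-8259173, minus strand), differed in the other direction. It had 4521 UMIs, 194 CPM, in DKO and 5719 UMIs, 240 CPM, in DKO_Skp2het, a ratio of 1.24 (1.19 to 1.29). The ratio was 1.26 (1.20 to 1.33) in dividing and 1.34 (1.26 to 1.43) in non-dividing cells, and 1.23 and 1.31 at the common depth floor, where the value in dividing cells was under the limit. It was higher in 13 of 14 clusters, the exception being cluster 3 with 238 and 222 CPM. Rpa2 was higher too, at a ratio of 1.13 (1.08 to 1.18) over all cells but 1.04 at the common floor, and Rpa1 stood at 1.10 (1.02 to 1.19). In non-dividing cells Rpa1 had 42.0 and 52.6 CPM (interval of the ratio 1.11 to 1.42), and at the common floor 42.0 and 55.1 CPM (1.31, 1.15 to 1.50), which made it the other member past the limit there beside Rpa3.

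Tyms had 216 CPM in DKO and 272 CPM in DKO_Skp2het in dividing cells, a ratio of 1.26 (1.19 to 1.32), and 1.19 at the common depth floor, below the limit. The other members with the largest differences in dividing cells were Tk1 (104 and 127 CPM, ratio 1.22, and 1.28 at the common floor), Rfc5 (81.8 and 99.7 CPM, ratio 1.22), Pole2 (8.93 and 11.2 CPM, ratio 1.26, 0.971 to 1.63) and Dbf4 (163 and 191 CPM, ratio 1.17). Tyms and Tk1 act on thymidylate by the new and the salvage route, and were each higher in DKO_Skp2het in dividing and non-dividing cells. On the lower side in dividing cells, Timeless had 34.4 and 27.4 CPM (ratio 0.796, 0.687 to 0.922), Lig1 201 and 168 CPM (0.836, 0.788 to 0.887), Tipin 589 and 506 CPM (0.860, 0.831 to 0.890) and Pole 21.9 and 18.5 CPM (0.844, 0.703 to 1.01). Because of the added 5 CPM, the 0.796 of Timeless was not called. At the common floor Timeless stood at 0.757, past the limit. Lig1 was lower in 12 of 12 clusters with 50 UMIs or more and Tipin in 14 of 15, each by less than 20% over all cells (ratios 0.892 and 0.874).

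In non-dividing cells Cdca7, a chromatin factor linked to DNA methylation, differed most, with 64.3 CPM in DKO and 94.4 CPM in DKO_Skp2het, a ratio of 1.47 (1.33 to 1.62). Dtl had 88.3 and 114 CPM (1.29, 1.18 to 1.40), Rrm1 44.8 and 56.7 CPM (1.27, 1.12 to 1.43) and Prim1 60.4 and 76.2 CPM (1.26, 1.14 to 1.40). These values moved with the depth: at the common floor Cdca7 stood at 1.19, Dtl at 1.11, Rrm1 at 1.18 and Prim1 at 1.18, all less than 25% higher. The lowest ratios after Orc6 were those of Pola2 (30.6 and 26.8 CPM, 0.877), Mcm5 (48.9 and 45.3 CPM, 0.927), Prim2 (38.5 and 36.1 CPM, 0.939) and Tipin (458 and 432 CPM, 0.944). Over all cells the members with the largest differences beyond these were Rfc1 (ratio 1.15), Rfc2 (1.15) and Prim1 (1.15) on the higher side, and Mcm5 (0.872) and Mcm10 (0.850) on the lower.

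**Figure D5:**
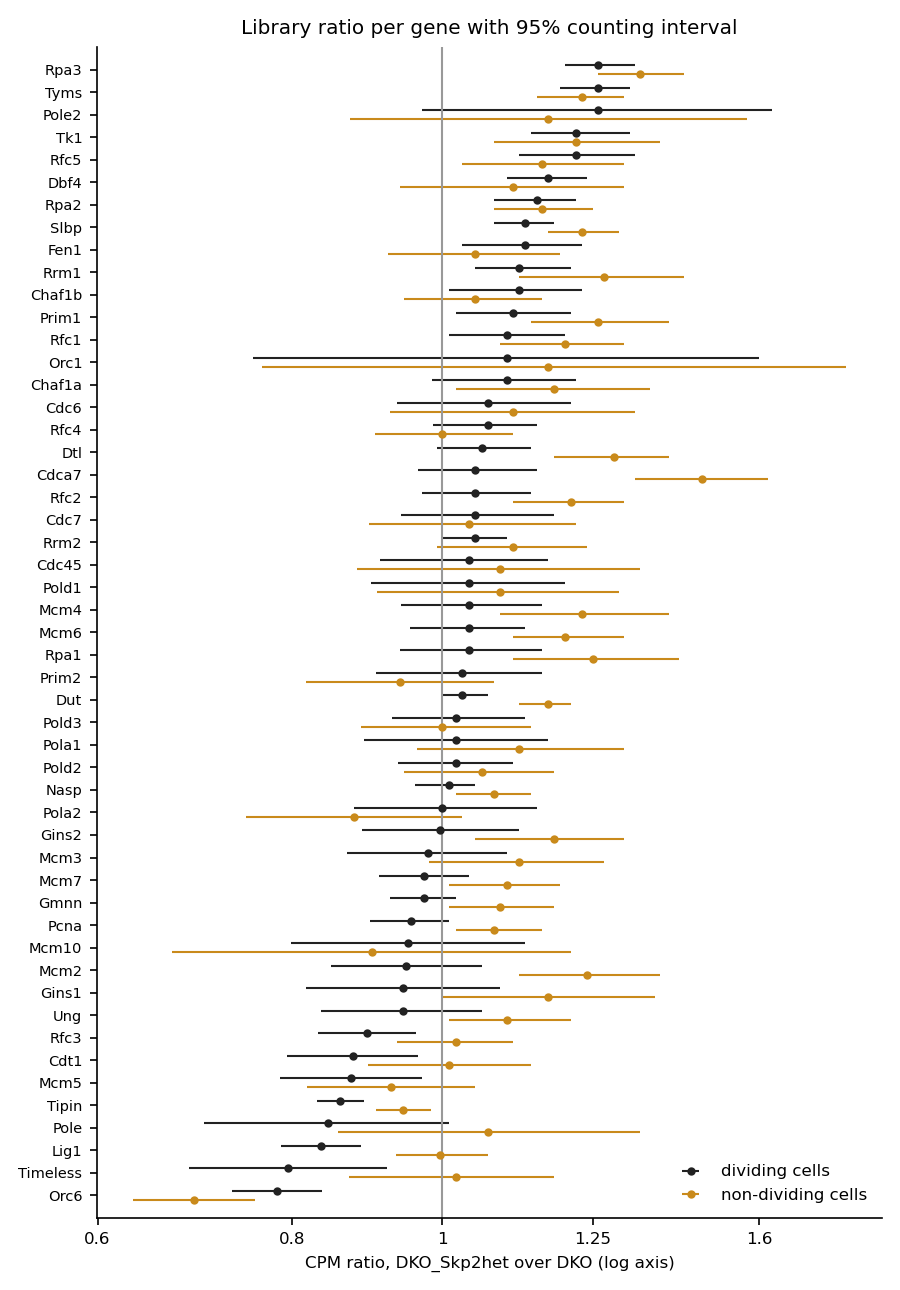
Ratio of CPM in DKO_Skp2het over DKO for each of the 51 genes with its 95% counting interval, on a log axis, in dividing cells (black) and non-dividing cells (yellow), ordered by the ratio in dividing cells. Most points lie near 1, Orc6 lies lowest in both populations (0.783 and 0.692), and Cdca7 lies far to the right in non-dividing cells (1.47) but not in dividing cells (1.05).

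The ratio also differed by cell type. In cone-like cells the summed level of the 51 genes was 0.583 of that in DKO (0.526 to 0.645, 38 and 59 cells), in bipolar-like cells 0.745 (0.694 to 0.800), in cluster 4 0.762 (0.736 to 0.789), in rod-like cells 0.853 (0.813 to 0.895) and in cluster 7 0.896 (0.870 to 0.922). The core proliferation genes were also lower in most of these, at ratios of 0.352 in cone-like, 0.498 in bipolar-like, 0.360 in cluster 4 and 0.495 in rod-like cells. In cluster 7 they were lower in non-dividing cells (957.8 CPM in DKO and 742.4 CPM in DKO_Skp2het) but higher in dividing cells (6084 and 7525 CPM). Median depth differed too, with 10606.5 UMIs in DKO and 6500 in DKO_Skp2het for cone-like cells and 6815 and 4520 for rod-like cells. The part of either in the result was not tested. Restricted to non-dividing cells, the ratio of the replication genes was 0.635 (0.572 to 0.705) in cone-like, 0.795 (0.738 to 0.857) in bipolar-like, 0.748 (0.719 to 0.778) in cluster 4 and 0.828 (0.780 to 0.878) in rod-like cells. In rod-like cells with both cycle lists, 37 and 32 cells, the replication genes were instead higher in DKO_Skp2het (1.22, 1.14 to 1.31). Amacrine-like cells had a ratio of 1.05 (0.989 to 1.12), whose interval includes no difference. With the clusters of DKO_Skp2het weighted by their shares of the UMIs of DKO, the ratio over all cells was 1.00.

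Other genes of the pathway, from a separate list of 40 replication factors such as Orc2, Topbp1 and Wdhd1, gave similar counts. Their sum was 3267 CPM in DKO and 3352 CPM in DKO_Skp2het, a ratio of 1.03 (1.02 to 1.04), and 1.01 at the common depth floor. Over all cells 0 of 40 passed the limit in either direction, where 3.20% of all genes were higher and 2.41% lower. In dividing cells 2 of 40 were higher and 0 lower, beside 4.68% and 4.06% of all genes. In non-dividing cells 3 of 36 were higher and 1 lower, beside 4.27% and 4.66%. At the common depth floor 0 of 38 were higher and 0 lower in dividing cells (5.04% and 3.81% of all genes). Non-dividing cells at the floor had 0 of 31 higher and 1 lower (4.19% and 2.82%). Histone genes, whose mRNA accumulates while DNA is being copied, had a lower sum in DKO_Skp2het over all cells, in dividing cells and in non-dividing cells. The 14 genes together had 938.4 CPM in DKO against 600.6 CPM in DKO_Skp2het (ratio 0.640, 0.627 to 0.654), and 1487 and 1110 CPM in dividing cells (0.746, 0.729 to 0.763). At the common depth floor the ratios were 0.714 and 0.789. Non-dividing cells had 174.8 and 153.2 CPM (0.876, 0.821 to 0.936), with a ratio of 0.854 (0.794 to 0.917) at the floor. Of the 5 histone genes compared in non-dividing cells, 3 were above and 2 below equal levels. Their median log2 difference was 0.04 and the lowest -1.28, so most of them did not share the lower sum. Over all cells and in dividing cells, 11 of 12 were below equal levels. Along the cycle order the histone ratio was 1.10 (0.808 to 1.51), 0.832, 0.484, 0.769 and 0.853 from the first bin to the last, and 0.748 (0.508 to 1.09), 0.788, 0.535, 0.809 and 0.857 at the common floor. In the middle bin the histones stood at 556.2 and 269.3 CPM, and the replication genes at 7696 and 8030 CPM. In cells with neither list the histones were higher in DKO_Skp2het, at 112.5 and 134.9 CPM (1.20, 1.05 to 1.37), and at 112.5 and 140.6 CPM at the floor (interval of the ratio 1.08 to 1.44). The kit captures polyadenylated RNA, and most replication histone mRNA has no poly(A) tail, so the counted histone reads are a minor fraction of that mRNA.

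Over 28 units of 1 cluster in 1 library with 50 cells or more, the genes outside the set whose log2 level followed the members' sum most closely included Clspn (r = 0.96), Naa50, Anp32b, Dnajc9, Hat1, Topbp1, Dnaaf2, Uhrf1 and Ranbp1 (r = 0.94). Among the members, each of which is itself part of the sum, r ran from 0.49 for Dbf4, 0.62 for Rfc2 and Rpa1 and 0.63 for Ung up to 0.96 for Rpa2. The units share libraries, depth and cell types in pairs, so these values describe likeness of pattern only.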

How the data were processed

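Per the labels' protocols, the dissected tissue was dissociated with papain and made into libraries with a droplet 3′ kit, while Cell Ranger 2.2.0 and the mm10 build are listed in the submitters' processing notes. Each deposited matrix holds unnormalized UMI counts, and the filter the authors used to call barcodes is not given in the sources used here. The 51 genes, their roles and all lists were chosen with earlier results of these data known.

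Barcodes under 500 genes or over 20% mitochondrial UMIs were left out, and the highest Scrublet-like doublet scores were removed at 0.8% per 1000 barcodes (105 in DKO, 216 in DKO_Skp2het). Counts were summed per library and population and divided by the summed total to give CPM. Ratios carry exact conditional binomial intervals, levels exact Poisson intervals and shares exact Clopper-Pearson intervals, all at 95%, which treat UMIs of 1 cell as independent. Genes with 200 UMIs or more over both populations compared were counted as compared. The ratio script was tested on simulated counts.

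Clusters came from 30 principal components, 15 neighbours and a Leiden partition (leidenalg 0.10.2, resolution 1.0) of the pooled, unintegrated libraries. A cluster was named from 18 fixed marker lists where a type's markers had a mean log2 fold of 1.0 or more, at least 3 markers exceeded 2-fold, and the 10 leading genes held more of its markers than of any other type's. The thresholds for naming were taken from earlier work on these data. Genes were named by rule: the Mcm ring, Pcna, Cdt1, Gmnn, Cdc6, Tyms, Rrm2 and Slbp in every state, the 5 highest and 5 lowest members of each comparison, Skp2, and the 10 genes most like the sum, of which 1 is not reported here. Members shown for a cluster or bin beyond these were chosen after their values were seen. Gene positions are from GENCODE vM21 (GRCm38), promoters from RefSeq (GRCm38.p6). Software was scipy 1.17.1, numpy 2.4.6, pandas 2.3.3 and igraph 0.11.9 under Python 3.11.15. Alternatives covered doublets, depth, cell weights, filters, scaling, the dividing limit, the pseudocount and the clustering resolution.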

Additional observations from a re-analysis of the deposited data

Results flagged for a closer look

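The ratio of the summed replication genes, DKO_Skp2het over DKO, differed between clusters, with counting intervals that lay on opposite sides of 1. The difference between clusters was not tested, since each library is 1 sample, and these ratios were not recomputed at the common depth floor. The ratio was below 1 in cone-like cells (0.583), bipolar-like cells (0.745), cluster 4, which is immature neuron-like (0.762), rod-like cells (0.853), cluster 7, which is immature neuron-like (0.896) and neurogenic progenitor-like cells (0.950). It was above 1 in cluster 11 (1.04), cluster 2 (1.07), cluster 1 (1.12), microglia-like cells (1.27) and Müller glia-like cells (1.39). The Müller glia-like value rests on 167 and 523 UMIs, and over non-dividing cells of that cluster the ratio was 1.01 (0.840 to 1.23).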

How the results depend on the processing

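The ratio over all cells was 0.990 at the common depth floor, 1.06 with thinned counts and 1.05 as a mean of each cell's CPM. It was 1.01 with median-of-ratios scaling, 1.07 weighted to the UMI shares of the cycle states of DKO and 1.00 to those of its clusters. In dividing cells it was 1.00 at the floor, 1.08 thinned, 1.07 as a mean over cells, 1.01 with median-of-ratios scaling, 1.05 with dividing called at 2 UMIs and 0.990 at 5 UMIs. In non-dividing cells it was 1.03 at the floor (1.03 with thinning too), 1.09 as a mean over cells, 1.13 at 2 UMIs and 1.09 at 5 UMIs. Dividing over non-dividing in DKO was 1.40 with doublets kept, 1.26 thinned, 1.26 as a mean over cells, 1.62 at 2 UMIs, 1.22 at 5 UMIs and 1.26 with floor and thinning. In DKO_Skp2het it was 1.29, 1.24, 1.23, 1.50, 1.11 and 1.27 under these settings, 1.38 at the floor and 1.33 with another random draw. The neurogenic progenitor-like ratio was 0.920 at resolution 0.5. The cause of these shifts was not tested. The median log2 difference of members in dividing cells was 0.05, and -0.005 at the floor, 0.13 thinned, 0.13 as a mean over cells, 0.02 with median-of-ratios scaling, -0.022 at 5 UMIs, 0.038 with a pseudocount of 20 CPM and 0.086 with floor and thinning.

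Of 101 values of members past the limit between libraries, recomputed under alternatives, 93 moved by less than their counting interval, 8 moved beyond it and 0 changed sign. The smallest was 0.04 on the log2 scale, Cdca7 in non-dividing cells with floor and thinning together. The weighting to clusters, floor with thinning, the 5 bins, the licensing sum without Orc6 and the shares of cells at the floor were chosen after seeing the data. No paired analysis was possible because each genotype has 1 library. The shallower cells of DKO_Skp2het and the unknown number of animals limit every comparison between genotypes.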
